A study of Mus musculus with 12 samples.

Results

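The DNA replication and S-phase genes described here are 37 genes chosen by name for their place in the copying of the genome. They reach from origin licensing to histone supply. No measured value served as a rule of choice, but earlier results of these data were known when the genes were chosen. All 37 were measured, of 12393 genes named on the array, through 66 of its 22626 probe sets. Each probe set combines several short probes to a transcript into an intensity, which has arbitrary units. Each gene is given by its probe set with the highest mean intensity, and the other 29 probe sets, which belong to 21 of the genes, are described separately. Intensities of different probe sets are not on one scale, so levels are compared between samples and not between genes.

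Replication begins at origins, where the origin recognition complex, Cdc6 and Cdt1 load the ring of Mcm proteins that later unwinds the DNA. Polymerases, the sliding clamp and its loader then copy both strands while enzymes of nucleotide synthesis supply the building blocks. Most of these genes are transcribed in late G1 and S phase under E2F factors, so in a bulk tissue their RNA is commonly used as a measure of dividing cells. In the fundic gland, the acid-secreting unit of the stomach, the dividing cells lie in the isthmus. Gastrin is the stomach hormone that drives acid secretion and is known as a growth factor of this mucosa, and cholecystokinin (CCK) is its close relative.

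RNA of scraped fundic mucosa was measured on 12 one-colour arrays in 4 groups of 3. The first group was wild-type mice, with about 2 to 4 mice dissected per the labels and no infusion described. In the second, gastrin knockout mice received saline for 1 week, and the labels give their sex and age, male and 2 months, which they do not give for the others. Gastrin knockout mice that received gastrin for 1 week made up the third, and mice lacking both gastrin and CCK, again with no infusion described, the fourth. Infusion therefore differs along with genotype wherever an infused group is set against an uninfused one. Nothing in the labels says whether the 3 samples per group were separate animals, so p-values here reflect the spread of these samples alone, part of which may be technical.

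The array medians lay between 403 and 421, and the correlation of log2 values between replicates between 0.955 and 0.973. Markers of parietal cells (Atp4a), chief cells (Pgc), surface mucous cells (Muc5ac) and mucous neck cells (Tff2) were far above the noise in every group. The intestinal factors Cdx1 and Cdx2 lay between -71 and 69, at the noise. Another intestinal marker, Fabp2, read 32 to 192 over the 12 arrays and was above the noise on most. With Vil1 added, the summed intensity of the 4 intestinal markers was 949 to 2128. The noise level of an array, its lowest percentile (1) with the sign turned, averaged 75.3 to 90.9 per group. Double-knockout replicate 2 stood apart for the genes described here: 14 of the 37 had their highest value of all 12 arrays on it, against 11.3% of all probe sets. Medians of the 37 genes that rest on it are given with and without it. In scrapings, fewer cells of a type and less RNA per cell cannot be told apart.

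Gastrin against saline infusion of the knockout was the comparison with the largest median difference of these genes among the 6. With gastrin, 35 of the 37 genes had a lower mean than with saline, with a median log2 difference of -0.67, against 49.1% with a lower mean and a median of 0 over all probe sets. For 22 of the 37 genes all 3 gastrin arrays lay below all 3 saline arrays, and for 0 all lay above. Over all probe sets, 10.3% were separated downward in this way and 10.5% upward. Only E2f1 passed the test across all probe sets, made with limma and the Benjamini-Hochberg method, for which an adjusted p under 0.05 over the 22626 probe sets counts as passed. In that comparison 1.25% of all probe sets passed and 0.473% passed as lower. Before adjustment, 23 of the 37 genes had a p under 0.05 as lower and 0 as higher, against 7.93% of all probe sets as lower. Leaving out double-knockout replicate 2, which enters this comparison only through the shared estimate of the spread, E2f1 no longer passed and Pola2, Pcna, Lig1 and Rrm2 did. These 4 calls are close to the threshold: over the fits that each left out 1 array, their lowest limma adjusted p was 0.0404 to 0.0498. Of all probe sets 67 to 264 passed in those fits. Most differences of the 37 genes are therefore given below as measured values that did not pass the test.

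**Figure D1:**
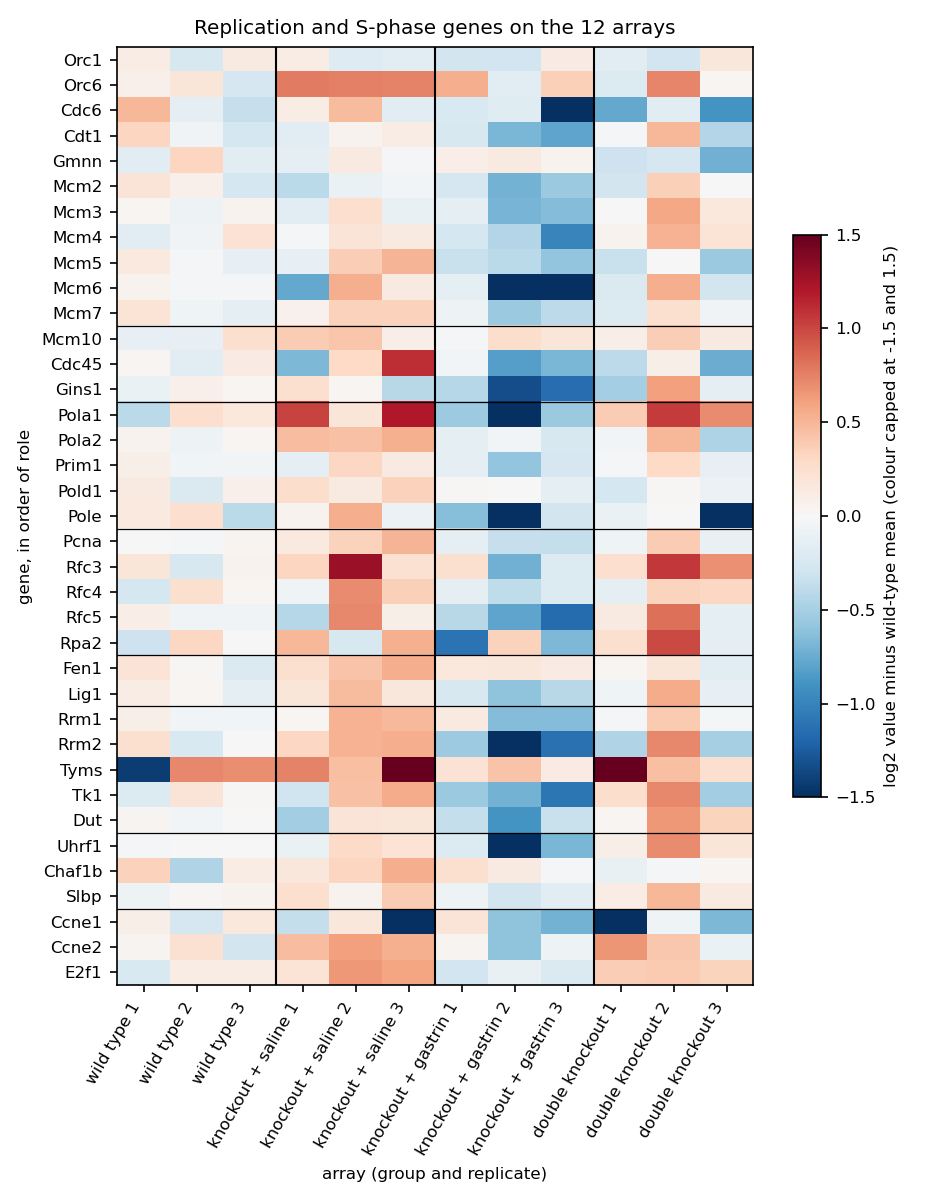
Log2 intensity of each of the 37 genes (rows, grouped by role) on each of the 12 arrays (columns), shown as the difference from the gene's wild-type mean with the colour capped. The 3 gastrin arrays are mostly below wild type, replicate 1 least, and 27 of the 37 genes have their lowest value on one of them (25% of all probe sets do). Of these genes 17 have it on gastrin replicate 2, 8 on replicate 3 and 2 on replicate 1. The median log2 value of the 37 genes is 8.89 on gastrin replicate 1, above saline replicate 1 (8.84). It is 8.37 and 8.31 on gastrin replicates 2 and 3.

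E2f1, a transcription factor that switches on genes for S phase, was the gene that passed. Its intensities were 210, 265 and 265 in wild type and 282, 384 and 369 in the saline-infused knockout. They were 201, 227 and 211 in the gastrin-infused knockout and 318, 321 and 310 in the double knockout. The gastrin values lay below every saline and every double-knockout value and overlapped those of wild type. With gastrin E2f1 fell by 0.68 ± 0.13 (SE, log2, n = 3 per group) against saline (limma, adjusted p = 0.0469). It fell by 0.57 ± 0.13 against the double knockout (limma, adjusted p = 0.0391), and it was the only one of the 37 to differ among the 4 groups by the F test (adjusted p = 0.0349), which 7.7% of all probe sets passed. The difference from wild type was 0.48 ± 0.13 in the saline-infused knockout (adjusted p = 0.104) and 0.37 ± 0.13 in the double knockout (adjusted p = 0.166), neither of which passed. Both calls of E2f1 are close to the threshold: the first was lost in 10 of 12 fits that each left out 1 array, with adjusted p between 0.0391 and 0.118, and the second in 8 of 12, between 0.0227 and 0.102. The second probe set of E2f1 lay between -114 and 86 and was within the noise on 11 of the 12 arrays, the exception being wild-type replicate 2. With the 3'/5' ratio of Gapdh as a covariate, a measure of RNA integrity, the adjusted p was 0.0772 and 0.0531.

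The cyclins E, which drive the step from G1 into S phase with their kinase, gave no common direction. For Ccne2 the intensities were 119, 136 and 96 in wild type, 159, 177 and 168 with saline, 119, 76 and 110 with gastrin and 184, 153 and 108 in the double knockout. Gastrin values were all below saline values, with a log2 difference of -0.75 ± 0.23 (limma, adjusted p = 0.149). Ccne1 was one of the 2 genes with a higher mean log2 value under gastrin, but its saline arrays read 286, 410 and 54, so the difference of 0.61 ± 0.73 includes the lowest of the 12 values, on saline replicate 3, and the groups overlapped.

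Of the 11 licensing genes, 6 had all gastrin values below all saline values: Orc6, Cdc6, Cdt1, Mcm4, Mcm5 and Mcm7. Of all probe sets 10.3% did. The median log2 difference of the 11 was -0.58, and 0 passed the limma test for gastrin against saline, against 1.25% of all probe sets. At an unadjusted p under 0.05 there were 6, all as lower, against 7.93%. Mcm4, a subunit of the helicase ring, read 569, 612 and 743 in wild type, 626, 731 and 699 with saline, 530, 470 and 322 with gastrin and 659, 915 and 736 in the double knockout. Every gastrin value was below every value of the other 3 groups. It fell by 0.82 ± 0.20 with gastrin against the double knockout (limma, adjusted p = 0.0451), and the difference from saline was -0.67 ± 0.20 (adjusted p = 0.140). The call against the double knockout was lost in 11 of 12 fits that left out 1 array, with adjusted p up to 0.123.

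Mcm7, another subunit of the ring, read 2991, 3624 and 3634 with saline and 2713, 1937 and 2175 with gastrin, with no overlap. Its wild-type values were 3281, 2739 and 2592 and its double-knockout values 2469, 3362 and 2744, and the log2 difference of gastrin from saline was -0.60 ± 0.16 (adjusted p = 0.116). For Mcm5 the saline values were 733, 1028 and 1135 and the gastrin values 632, 602 and 530, the latter also below all wild-type values of 885, 784 and 735. The difference between the infused groups was -0.69 ± 0.19 (adjusted p = 0.110). Mcm2 and Mcm3, the other subunits of the ring besides Mcm6, differed by -0.32 ± 0.19 and -0.49 ± 0.19 between the infused groups, with overlap.

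Mcm6 was the subunit with the widest spread. Its intensities were 1239, 1183 and 1175 in wild type, 706, 1748 and 1316 with saline, 1094, 330 and 318 with gastrin and 1030, 1750 and 992 in the double knockout. Gastrin replicate 1 lay with the wild-type arrays and replicates 2 and 3 well below them, and the log2 difference from saline of -1.27 ± 0.50 did not pass (adjusted p = 0.253). The second, dimmer probe set of Mcm6 was tighter, with 278, 340 and 383 with saline and 139, 109 and 121 with gastrin. On it Mcm6 fell with gastrin by 1.43 ± 0.21 against saline (limma, adjusted p = 0.0255) and by 1.14 ± 0.21 against the double knockout (adjusted p = 0.0196).

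Orc6, a subunit of the origin recognition complex, read 187, 201 and 149 in wild type and 305, 301 and 298 with saline, all saline values being higher, and the log2 difference was 0.76 ± 0.25 (adjusted p = 0.161). With gastrin it read 259, 159 and 228, below the saline values and overlapping wild type. Orc1, the largest subunit, showed no separation in any of the 3 comparisons among wild type and the infused knockouts, with differences of -0.08 ± 0.17 (saline minus wild type), -0.07 ± 0.17 (gastrin minus saline) and -0.15 ± 0.17 (gastrin minus wild type). Cdt1 differed by -0.58 ± 0.25 between gastrin and saline on its brighter probe set, while the dimmer one gave 0.10, the other direction. Gmnn, the protein that inhibits Cdt1 once S phase has begun, did not follow the other licensing genes. It read 1214, 1454 and 1297 with saline, 1427, 1454 and 1382 with gastrin and 1075, 1113 and 806 in the double knockout. Its double-knockout values were all below those of wild type (1188, 1660 and 1189), by -0.43 ± 0.16 (adjusted p = 0.183), and it was the only gene of the 37 with all gastrin values above all double-knockout values, by 0.52 ± 0.16 (adjusted p = 0.0944).

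The promoters of these genes were compared with all mouse promoters because E2F sites are a known shared feature of S-phase genes. RefSeq windows of assembly GRCm38.p6, from 250 bases before to 50 after the annotated start, were at hand for 32 of the 37 genes. The words TTTCCCGC, TTTGGCGC, TTTCGCGC and TTTGCCGC were sought on both strands. At least 1 occurred in the windows of 12 of the 32 genes, 37.5%, against 2.6% of the 27025 genes with a window. The start site of a window can lie inside the gene, at an inner transcript. For 9 of the 12 genes the words lay only inside the gene. Among these, the start site for Mcm3, Pold1 and Cdt1 was the outer end of the gene, and the words began 19 to 39 bases after it. Words before the outer end of the gene were found for 3 of the 32 genes, 9.38%, against 1.49% of all genes. The letters CCAAT, also on both strands, occurred in 56.2% against 41.1%. The upstream stretches of Mcm6, Rfc3 and Mcm5 are shown because these are the 3 genes with words before the gene, with the words in capitals and overlapping words joined in one run. The Mcm6 stretch is chr1:128359706-128359955, minus strand, that of Rfc3 is chr5:151651209-151651458, minus strand, and that of Mcm5 is chr8:75109259-75109467, plus strand.
Mcm6: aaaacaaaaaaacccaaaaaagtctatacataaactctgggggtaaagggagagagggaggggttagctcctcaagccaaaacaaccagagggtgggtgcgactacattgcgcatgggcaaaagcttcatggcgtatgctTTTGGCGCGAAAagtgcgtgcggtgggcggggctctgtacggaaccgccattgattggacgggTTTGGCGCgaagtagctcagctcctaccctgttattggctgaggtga
Rfc3: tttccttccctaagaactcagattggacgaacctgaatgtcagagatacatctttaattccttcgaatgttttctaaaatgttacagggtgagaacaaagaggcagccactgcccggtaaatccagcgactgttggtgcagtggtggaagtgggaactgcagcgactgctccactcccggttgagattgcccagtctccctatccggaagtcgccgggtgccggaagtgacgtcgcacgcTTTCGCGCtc
Mcm5: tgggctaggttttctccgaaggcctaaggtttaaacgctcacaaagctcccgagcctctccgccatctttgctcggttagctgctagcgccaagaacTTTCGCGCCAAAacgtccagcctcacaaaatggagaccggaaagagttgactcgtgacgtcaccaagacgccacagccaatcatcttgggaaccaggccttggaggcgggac
The Mcm6 stretch holds 3 words, Mcm5 2 and Rfc3 1. With a word anywhere in the window, 8 of 12 genes had all gastrin values below all saline values, with a median log2 difference of -0.70. Without one, 10 of 20 did, with a median of -0.59. A match is only a run of letters, and the start site used for E2f1 itself lies 466 bases inside the outer end of its gene, so the bases before the gene were not covered.

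Among the helicase activators, which turn the loaded ring into a moving helicase, Gins1 had gastrin values of 266, 142 and 162 below saline values of 423, 366 and 267 and wild-type values of 334, 376 and 364. The difference from saline was -0.92 ± 0.32 (adjusted p = 0.201). Mcm10 read 566, 568 and 728 in wild type, 802, 820 and 662 with saline, 603, 740 and 700 with gastrin and 653, 794 and 677 in the double knockout, with overlap between gastrin and saline. Cdc45, part of the active helicase, ranged from 81 to 310 over the 12 arrays.

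Of the 5 polymerase and primase genes, 4 had gastrin values below all saline values, as 10.3% of all probe sets did: Pola1, Pola2, Pold1 and Pole. Pola1, the catalytic subunit of the polymerase that starts new strands, read 238, 133 and 270 with saline and 81, -15 and 80 with gastrin. All gastrin values lay below those of the other 3 groups, and their mean lay within the noise, so the difference is a bound: at least 2.30-fold lower than with saline and at least 2.17-fold lower than in the double knockout (adjusted p = 0.119 and 0.0792). Pola2, its accessory subunit, read 345, 314 and 338 in wild type, 459, 450 and 482 with saline, 301, 324 and 282 with gastrin and 324, 468 and 241 in the double knockout. Saline values were higher than all wild-type and gastrin values, by 0.48 ± 0.20 and, with the sign turned, by a gastrin minus saline difference of -0.62 ± 0.20 (adjusted p = 0.241 and 0.162). For Pold1, catalytic subunit of the lagging-strand polymerase, the double knockout read 632, 769 and 711 against 911, 830 and 961 with saline, a log2 difference of -0.36 ± 0.11 (adjusted p = 0.102) and the nearest to the threshold of the 37 genes in that comparison. Prim1, the primase that lays the RNA primers, read 933, 1273 and 1127 with saline and 934, 679 and 857 with gastrin, with 1 gastrin value inside the saline range. Pole had arrays near 0 in 2 groups (gastrin replicate 2 at 12, double-knockout replicate 3 at -28), and had the largest error of the 37 genes, 1.31 on the log2 scale.

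Pcna, the sliding clamp that holds polymerases on DNA, read 5166, 5088 and 5325 in wild type, 5749, 6609 and 7393 with saline, 4739, 4084 and 4052 with gastrin and 4950, 6744 and 4808 in the double knockout. Saline values were all above wild type and gastrin values all below every other group. The gastrin minus saline difference was -0.61 ± 0.14 (limma, adjusted p = 0.0742) and that of saline minus wild type 0.33 ± 0.14 (adjusted p = 0.259). The loader subunits Rfc3, Rfc4 and Rfc5 differed between gastrin and saline by -0.85 ± 0.34, -0.57 ± 0.21 and -0.91 ± 0.33, with no overlap only for Rfc4. Rpa2, which coats single-stranded DNA, read 328, 197 and 336 with saline and 108, 296 and 146 with gastrin, with overlap.

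Fen1 and Lig1, which trim and seal the fragments of the lagging strand, both had gastrin values below all saline values. For Lig1 these were 794, 622 and 704 against 1071, 1313 and 1062, with wild type at 1017, 964 and 851, and the difference was -0.70 ± 0.19 (adjusted p = 0.106). Fen1 read 4202, 4783 and 5198 with saline and 3952, 4002 and 3866 with gastrin, a difference of -0.26 ± 0.13 (adjusted p = 0.370), and its saline values were all above those of wild type (4091, 3585 and 3062). The second probe set of Fen1, at a lower intensity, read 333, 387 and 376 with saline and 213, 121 and 121 with gastrin. On it Fen1 fell by 1.32 ± 0.22 against saline (limma, adjusted p = 0.0332) and by 1.31 ± 0.22 against the double knockout (adjusted p = 0.0133), so the 2 probe sets gave differences of unequal size.

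Rrm2, the S-phase subunit of ribonucleotide reductase, had the largest difference between the infused groups after Pola1 and Pole, which had arrays within the noise. Its intensities were 1251, 906 and 1060 in wild type, 1314, 1520 and 1549 with saline, 731, 350 and 488 with gastrin and 775, 1745 and 751 in the double knockout. Gastrin values were below all others, and 2 of the double-knockout values lay below wild type while replicate 2 was the highest of the 12. The gastrin minus saline difference was -1.54 ± 0.35 (adjusted p = 0.0707), and gastrin minus wild type was -1.09 ± 0.35 (adjusted p = 0.298), the nearest to the threshold in the latter comparison. Rrm1, the other subunit, differed by -0.73 ± 0.23 from saline with overlap. Tk1, thymidine kinase, read 647, 582 and 450 with gastrin, below all arrays of the other groups, which lay between 662 and 1572. Dut, which keeps uracil out of DNA, had overlapping values in the infused groups on its brighter probe set, while on its dimmer one it fell with saline against wild type (limma, adjusted p = 0.0406). That probe set read 172, 114 and 138 in wild type and 78, 48 and 64 with saline, all 3 saline values within the noise, so the difference is a bound of at least 1.53-fold. Tyms, thymidylate synthase, had group means within the noise in wild type and both infused groups, with saline replicate 3 above it at 134, and no fold is given for it.

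Slbp, which binds the stem-loop of histone messages, read 1189, 1269 and 1304 in wild type, 1494, 1301 and 1631 with saline, 1186, 1036 and 1116 with gastrin and 1351, 1766 and 1375 in the double knockout. Gastrin values were below all others, with a difference of -0.40 ± 0.12 from saline (adjusted p = 0.147), and the double-knockout values were all above wild type. Its second probe set lay between -24 and 79 on the 12 arrays, within the noise. Uhrf1, which helps to copy DNA methylation at the fork, read 370, 484 and 455 with saline and 343, 116 and 246 with gastrin, again below all other arrays, with a difference of -1.02 ± 0.34 (adjusted p = 0.189). Chaf1b, part of the complex that places histones on new DNA, read 452, 500 and 587 with saline and 475, 441 and 392 with gastrin, with overlap.

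**Figure D2:**
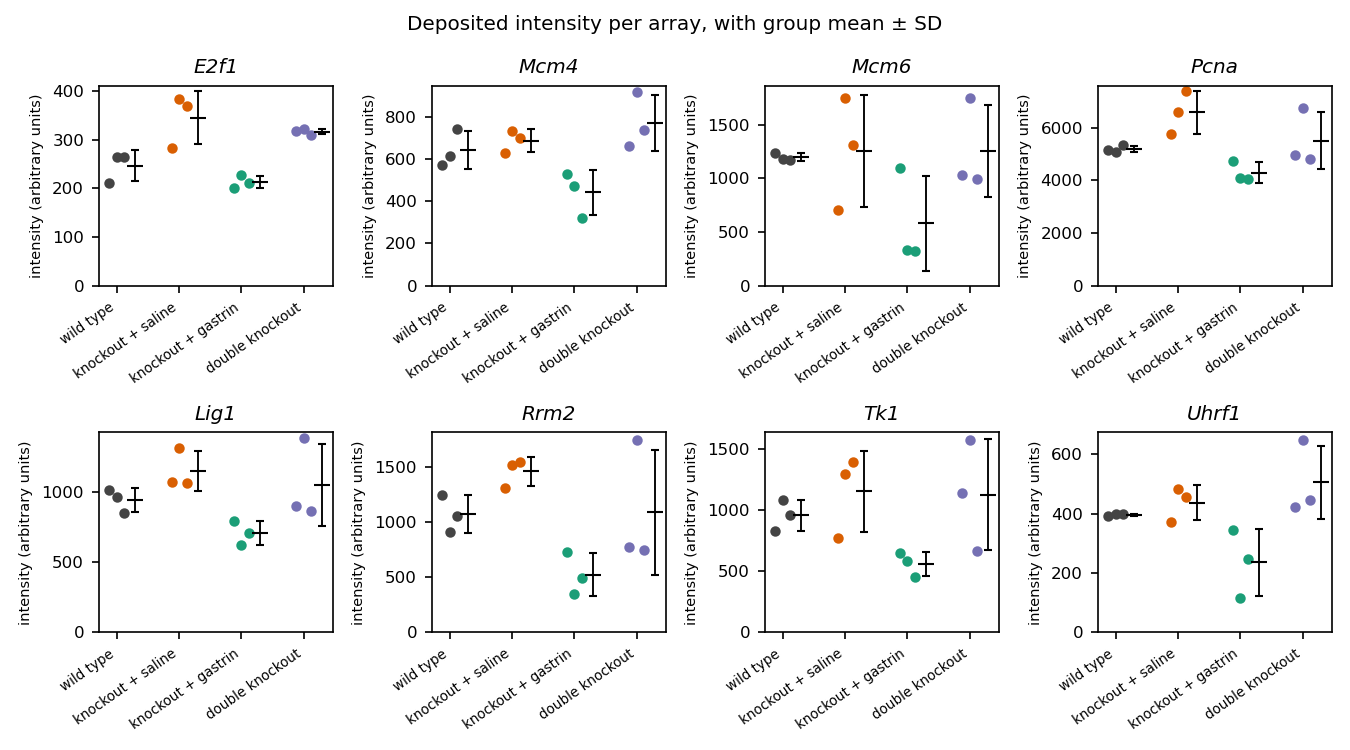
Intensity (arbitrary units) of E2f1, Mcm4, Mcm6, Pcna, Lig1, Rrm2, Tk1 and Uhrf1 in the 4 groups, with 1 point per array and the group mean ± SD (n = 3) beside the points. Gastrin values lie below all saline values for each of these except Mcm6, whose gastrin replicate 1 lies at 1094. The genes shown are a chosen part of the 37, of which 22 had all gastrin values below all saline values.

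The other 29 probe sets of these genes pointed mostly the same way. Between gastrin and saline, 21 had a lower mean, 7 a higher one and 1 no difference, with a median of -0.47, against 49.1% of all probe sets with a lower mean. All gastrin values were below all saline values for 10 and above for 1, against 10.3% and 10.5% of all probe sets. The test was passed by 2, those of Mcm6 and Fen1 described above, against 1.25%. These probe sets are read on the same RNA and are not further replicates.

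Between the saline-infused knockout and wild type the differences pointed the other way. Of the 37 genes, 29 had a higher mean log2 value in the saline-infused knockout, against 48.5% of all probe sets, with a median difference of 0.25, and 0 passed the test, against 2.08% of all probe sets. All saline values were above all wild-type values for 9 genes: Orc6, Pola2, Pcna, Rfc3, Fen1, Lig1, Rrm2, Ccne2 and E2f1. Over all probe sets the share was 10.9%, and 0 of the 37 were separated downward, against 12.4%. Unadjusted p under 0.05 was reached by 6 of the 37, all as higher, against 7.99% of all probe sets. Leaving out saline replicate 2 the median was 0.19.

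Gastrin-infused knockouts were also below wild type for most of these genes. Of the 37, 31 had a lower mean, against 50.4% of all probe sets, the median difference was -0.38, and 15 were separated downward, against 9.41% of all probe sets. None passed the limma test (0 of 37), which 0.11% of all probe sets did, and 12 had an unadjusted p under 0.05, all as lower, against 6.37%. These comparisons share arrays, so they are not independent of each other. The gastrin mean was the lowest of the 4 groups for 30 of the 37 genes, against 23.8% of all probe sets, and the saline mean the highest for 23, against 25.4%.

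**Figure D3:**
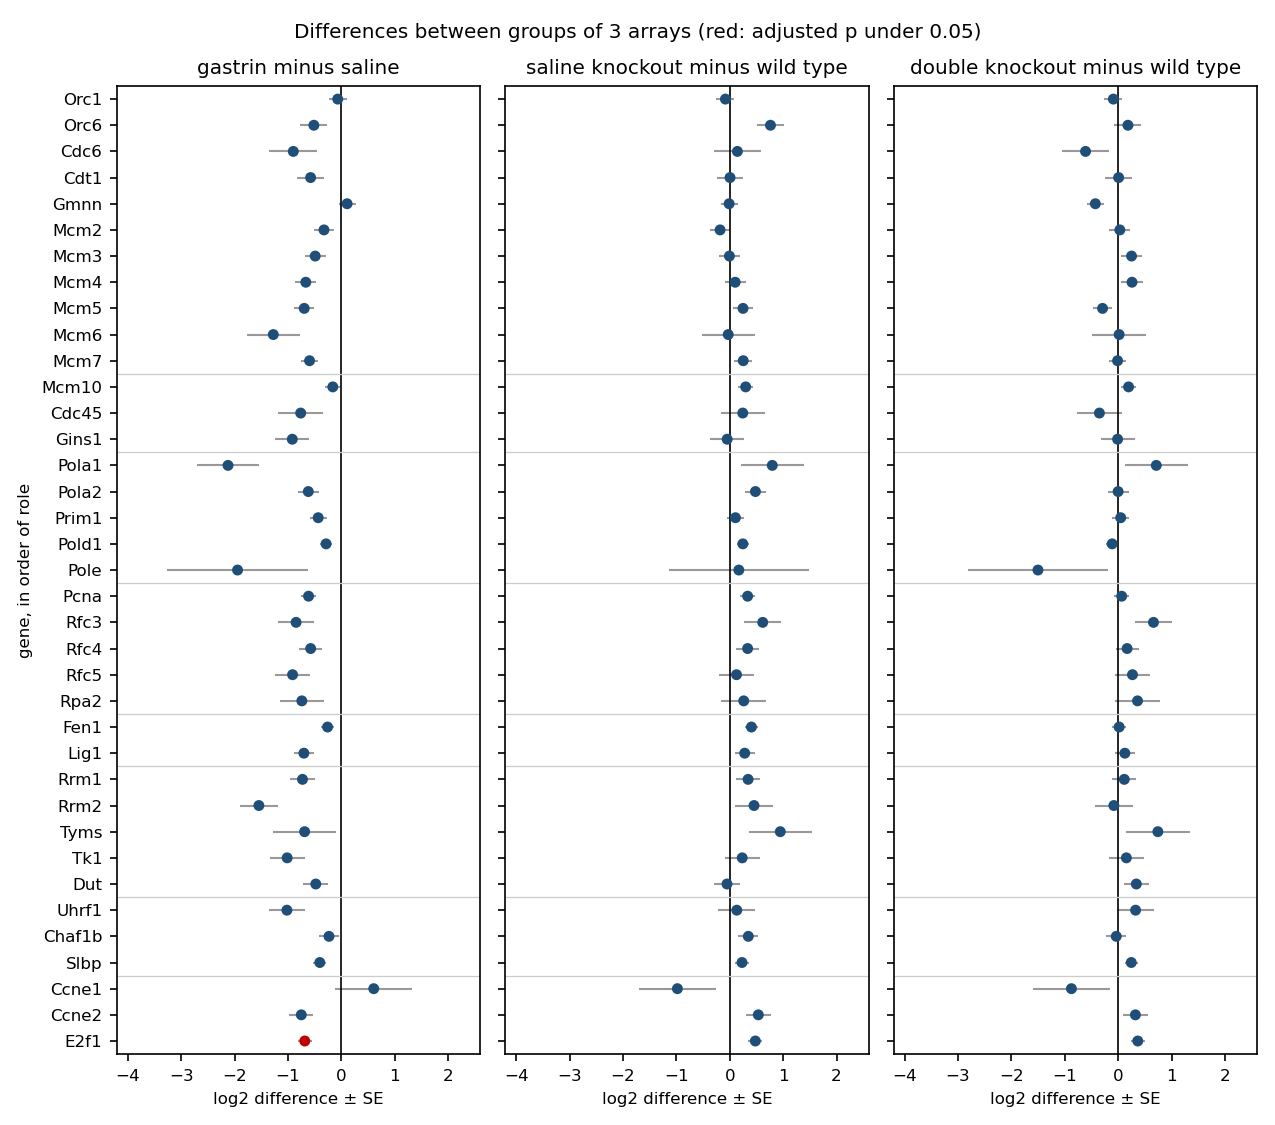
Log2 difference of each of the 37 genes for gastrin minus saline, saline knockout minus wild type and double knockout minus wild type, with bars of 1 standard error from limma (3 arrays per group) and red points for an adjusted p under 0.05. In gastrin minus saline, 35 of the 37 genes lie below 0, and in saline minus wild type 29 lie above it.

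In the double knockout these genes were spread on both sides of wild type. The median difference was 0.07, with 24 genes above and 13 below (48.2% of all probe sets were above), 5 separated upward (Pola1, Rfc3, Uhrf1, Slbp and E2f1) and 1 downward (Gmnn), against 11.6% and 12.9% of all probe sets. None of the 37 passed the limma test (0), against 4.14% of all probe sets, and 1 had an unadjusted p under 0.05 in each direction, against 9.03% as higher and 10.6% as lower. Without double-knockout replicate 2 the median was -0.08, with 14 genes above and 23 below, and it was 0.15 without replicate 1, 0.18 without replicate 3 and 0.12 without wild-type replicate 1. Against the saline-infused knockout 24 genes were lower, against 48.5% of all probe sets, the median was -0.11 and 0 passed, against 5.98%; 6 genes were separated downward, against 12.7%, and 6 had an unadjusted p under 0.05, all as lower, against 10.6%. This median was -0.25 without double-knockout replicate 2 and also without saline replicate 1, -0.06 without double-knockout replicate 1, and -0.07 without double-knockout replicate 3 or saline replicate 2.

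Gastrin-infused knockouts were lower than the double knockout for 31 of the 37 genes, against 48.3% of all probe sets, with a median of -0.48. E2f1 and Mcm4 passed, against 3.08% of all probe sets that passed as lower and 5.83% in either direction. Downward separation was seen for 14 genes, against 13.2%, upward separation for Gmnn alone, against 13.1%, and 19 had an unadjusted p under 0.05 as lower, against 11%. Without double-knockout replicate 2 the median was -0.33. Infusion differs along with genotype in this comparison, and markers of differentiated cells moved with it: 4 of 4 surface mucous, 3 of 4 parietal and 2 of 2 enterochromaffin-like cell markers were called higher with gastrin than in the double knockout, and of 3 chief cell markers 1 was called higher and 1 lower. Of all probe sets 2.75% were called higher and 3.08% lower. The part of these cells in the differences of the 37 genes was not tested.

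Other genes of replication that are not among the 37, of which 42 of 51 listed were measured, had a median gastrin minus saline difference of -0.19. Of these 42, 13 were separated downward, against 10.3% of all probe sets, and 0 passed the limma test, against 1.25%. At an unadjusted p under 0.05 there were 11, all as lower, against 7.93% of all probe sets. The list holds further subunits and regulators as well as cell cycle inhibitors. Cdkn1a, which blocks S-phase kinases, differed by 0.04 ± 0.14 (adjusted p = 0.945), and Ccna2, a cyclin of S and G2 phases, by -1.01 ± 0.27 (adjusted p = 0.105). By the F test 4 of the 42 passed, namely Orc4, Prim2, Hells and Top1, against 7.7% of all probe sets. Orc4, a subunit of the origin recognition complex, was lower in the double knockout than in wild type by a log2 difference of -0.42 ± 0.07 (adjusted p = 0.0199) and than in the saline-infused knockout by -0.44 ± 0.07 (adjusted p = 0.0127). Prim2, the other primase subunit, was lower in the double knockout than with saline, by -0.68 ± 0.14 (adjusted p = 0.0294). Top1, which relieves twist ahead of the fork, was higher there, by 0.61 ± 0.12 (adjusted p = 0.0238). Gastrin minus double-knockout differences passed for Orc4, at 0.39 ± 0.07, and for Top1, at -0.70 ± 0.12. Of the 42, 1 thus passed as lower in the double knockout than in wild type, against 2.12% of all probe sets. Against saline, 2 passed as lower and 1 as higher, against 2.76% and 3.22%. For gastrin minus double knockout 1 passed in each direction, against 2.75% as higher and 3.08% as lower.

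Genes of mitosis, the phase that follows, were also mostly lower with gastrin. Of 21 measured, 20 had a lower mean with gastrin than with saline, against 49.1% of all probe sets, and the median was -0.58. Downward separation was seen for 8, against 10.3% of all probe sets. Anln fell by 1.55 ± 0.28 (limma, adjusted p = 0.0393) and was the only one to pass, against 0.473% passing as lower. Mki67, a marker of cells in cycle, read 1503, 1652 and 1017 in wild type, 1388, 2274 and 1889 with saline, 696, 813 and 695 with gastrin and 1611, 2704 and 1077 in the double knockout. Its gastrin values were below all others, and the difference from saline was -1.31 ± 0.33 (adjusted p = 0.0936). Against the double knockout the median was -0.84, and 5 of the 21 passed as lower with gastrin, against 3.08% of all probe sets. These were Aurkb (-0.91 ± 0.15), Birc5 (-1.34 ± 0.31), Nusap1 (-1.12 ± 0.25), Prc1 (-1.02 ± 0.24) and Anln (-1.33 ± 0.28), genes of chromosome segregation and cell division. The median and the calls include double-knockout replicate 2 and were not computed without it. Its mitosis sum was 18877, against 13662 and 9203 on replicates 1 and 3.

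**Figure D4:**
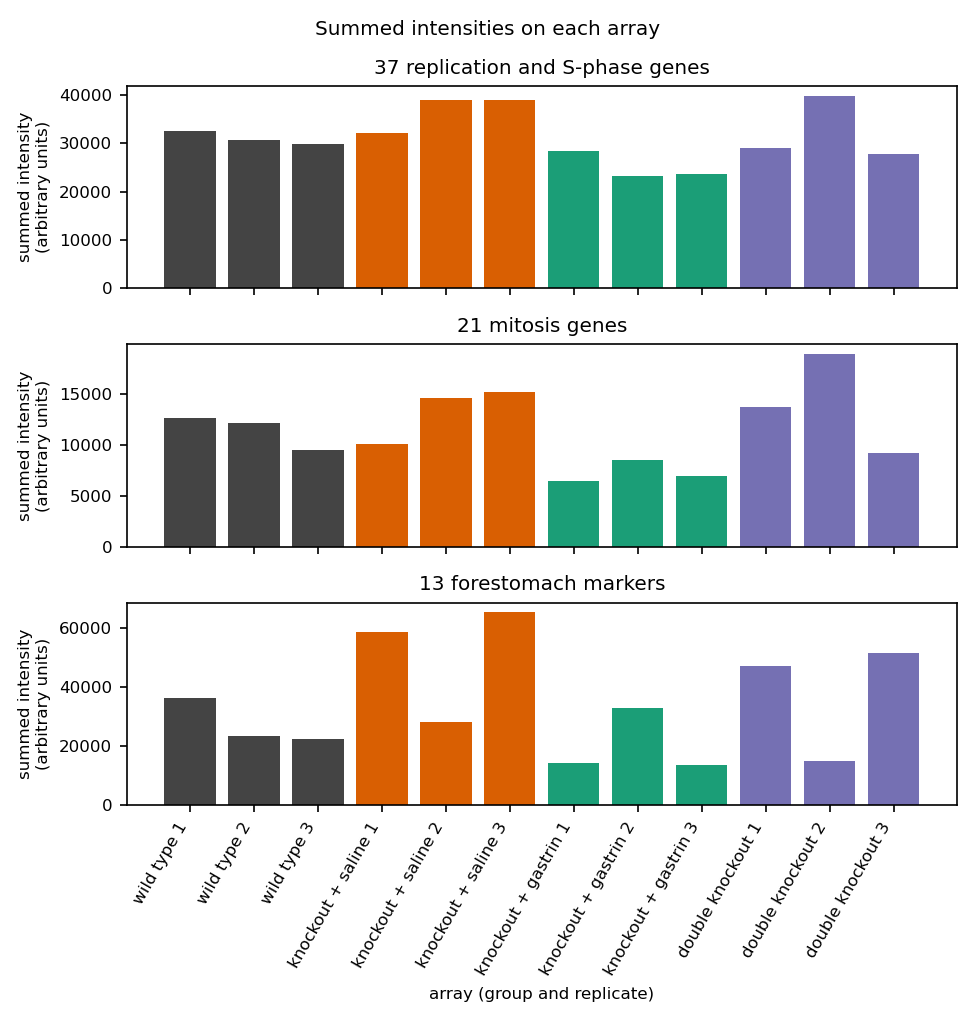
Summed intensity (arbitrary units) of the 37 genes, of 21 mitosis genes and of 13 forestomach markers on each of the 12 arrays, 1 bar per array. Gastrin arrays have the 3 lowest of the mitosis sums, and double-knockout replicate 2 has the highest sum of the 37 genes (39811) with one of the lower forestomach sums (14997).

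Markers of other cell types moved between the saline and gastrin groups. The squamous forestomach, whose basal layer divides, lies beside the fundus. Of 14 forestomach markers 13 were measured, and their summed intensity was 22223 to 36187 in wild type, 28286 to 65230 with saline, 13527 to 32751 with gastrin and 14997 to 51425 in the double knockout. Their median difference of gastrin minus saline was -1.15, and 2 passed the limma test as lower, Ly6d and Sfn, against 0.473% of all probe sets. Of the 13, 4 were within the noise on saline replicate 2, gastrin replicate 1 and double-knockout replicate 2 (Krt14, Krt15, Trp63 and Ivl), while on saline replicate 2 Krt5 read 316 and Krt13 1171, and on double-knockout replicate 2 they read 428 and 547. The group means of the sum of the 37 genes and of the forestomach sum had the same order. For the 37 genes they were 36617 with saline, 32221 in the double knockout, 30915 in wild type and 25085 with gastrin. For the forestomach markers they were 50727, 37835, 27268 and 20185 in that order of groups. Single arrays within a group did not always share an order. In wild type both sums were highest on replicate 1 and lowest on replicate 3. Saline replicates 2 and 3 had like sums of the 37 genes, 38961 and 38844, with forestomach sums of 28286 and 65230. In the double knockout replicate 2 had the highest sum of the 37 genes, 39811, and the lowest forestomach sum, 14997. With gastrin replicate 2 had the lowest sum of the 37 genes, 23170, and the highest forestomach sum, 32751. Parietal cell markers moved in the opposite direction to the replication genes, with summed intensities of 182269 to 193234 with gastrin and 127935 to 139501 with saline. By the limma test 2 of 4 rose, as did 1 of 2 measured markers of enterochromaffin-like cells, against 0.773% of all probe sets called higher. Markers of chief cells (0 of 3), surface mucous cells (0 of 4), mucous neck cells (0 of 1), B and plasma cells (0 of 4), T cells (0 of 4), myeloid cells (0 of 4), erythroid cells (0 of 2) and intestinal epithelium (0 of 4) gave no limma call between gastrin and saline. At an unadjusted p under 0.05 there were 2 of the intestinal, 1 of the B and plasma cell and 1 of the mucous neck markers as lower, and 1 chief cell marker in each direction. The shares of all probe sets at that level were 7.93% as lower and 8.04% as higher. The part of any of these cell types in the differences of the replication genes was not tested.

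The 3'/5' ratio of Gapdh, which rises when RNA is degraded or labelling is incomplete, was 0.983 to 2.00 in wild type, 1.01 to 1.18 with saline, 1.17 to 1.21 with gastrin and 1.29 to 1.32 in the double knockout. With this ratio in the model the median gastrin minus saline difference of the 37 genes was -0.62. In a fit restricted to probe sets at or above the median mean, which held 19 of the 37 genes, 6 passed as lower with gastrin than with saline (Mcm4, Mcm5, Mcm7, Pcna, Lig1 and Rrm2), against 3.01% of those probe sets. E2f1 is not among the 19.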

How the data were processed

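Fundic mucosal RNA of 4 mouse groups was measured on 12 arrays, and all 12 columns of the deposited table were used. The authors deposited linear intensities in whole numbers, some below 0, with 1 row per probe set. How they were scaled, summarised and background-corrected is not given in the sources used here. Per array, 7.57% to 8.47% of values fell under 16. The number of arrays limits the precision.

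Of 22690 probe sets, 64 controls were left out. Values were raised to a floor of 16, log2 values taken, and 1 mean per group fitted over all 12 arrays with limma 3.58.1 in R 4.3.3 (8 residual and 1.10 prior degrees of freedom). Contrasts gave the 6 comparisons and an F test, adjusted by Benjamini-Hochberg over 22626 probe sets at a threshold of 0.05. Errors of log2 differences are standard errors. A bound on a fold takes, on each array of the dim group, its noise level or its value, whichever is larger. Symbols came from the platform annotation: 20380 probe sets had 1 symbol, 691 several and 1555 were unlisted, and 20351 gene identifiers matched RefSeq. The fit was tested on simulated data.

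Each gene is represented by its probe set with the highest mean. Values on every array were given for genes that passed, the gene nearest the threshold in each comparison and the brightest of each role, with others added after their values were seen. Genes of other lists were named where they passed, with Mki67, Ccna2 and Cdkn1a in any case. The 37 genes and the lists were chosen with earlier results of these data known. Lists of forestomach, surface and neck mucous, parietal, chief, enterochromaffin-like, lymphoid, myeloid, erythroid and intestinal markers were summed per array. Alternatives were quantile normalization, centring, a filter on dim probe sets, floors of 1 and 64, second probe sets, a Gapdh covariate, a replicate block and leaving out each array. Python 3.11.15 with matplotlib 3.10.9 drew the figures.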

Additional observations from a re-analysis of the deposited data

How the results depend on the processing

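For gastrin minus saline the median difference of the 37 genes ranged from -0.69 to -0.56 over the settings and from -0.73 to -0.56 when 1 array was left out. It kept its direction also for saline minus wild type (0.17 to 0.27, and 0.19 to 0.34 with 1 array left out), gastrin minus wild type (-0.39 to -0.37, and -0.50 to -0.26) and gastrin minus double knockout (-0.48 to -0.34, and -0.57 to -0.33). Double knockout minus wild type, 0.03 to 0.08 over the settings, turned direction with 1 array left out (-0.08 to 0.18), and double knockout minus saline was -0.18 to -0.10, and -0.25 to -0.06. All 120 values lay within 1 SD between replicates (0.302) of the reported ones. That width is larger than both double-knockout medians and than the saline minus wild type median (0.25), so for these it does not bear on direction. The counts of genes that passed were not stable. For gastrin against saline, where 1 of 37 passed, 2 passed with quantile normalization, 0 with centring on the median, 6 of 19 with the filter at the median mean, 0 with a floor of 1, 2 with second probe sets, 0 with the Gapdh covariate, and 0 to 4 with 1 array left out. Against the double knockout 2 passed. The count was 0 with centring, 6 of 19 with the filter, 1 with a floor of 1 and 1 with the Gapdh covariate. It was 1 with the replicate block and 0 to 4 with 1 array left out. The 4 were reached without double-knockout replicate 2 in the first comparison and without gastrin replicate 1 in the second. Of the 6 with the filter against the double knockout, 5 passed as lower with gastrin. Among the filtered probe sets 8.05% passed as lower there and 15.3% in either direction. By the F test 1 passed, and 6 of 19 did with the filter. This count was 2 with a floor of 64, 2 with second probe sets, 0 with the Gapdh covariate and 0 to 2 with 1 array left out. Second probe sets gave 1 for saline against wild type, and leaving out 1 array gave 0 to 1 for the double knockout against saline. The filter tests fewer probe sets; the cause of the other changes was not tested.

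With second probe sets 4 differences turned direction: gastrin minus saline was 0.10 for Cdt1 and 0.40 for Slbp, and E2f1 differed from wild type by -1.19 with saline and by -0.75 in the double knockout, with group means of the Slbp and E2f1 probe sets within the noise. Of 1353 values of single genes under the alternatives, 1284 kept their direction and side of the threshold. They belong to 69 differences with an unadjusted p under 0.05. Most of the 69 had not passed, so keeping their side meant not passing again. The calls of E2f1 and Mcm4 were lost in most fits that left out 1 array.

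Replicate numbers did not pair the samples: deviations of same-numbered arrays from their group means correlated between -0.125 and 0.197, and 4 of 12 arrays correlated best with an array of their own number. With the replicate block 1 of the 37 genes passed for gastrin against saline and 1 for gastrin against the double knockout. Over all probe sets the count for gastrin against saline was 282, and 140 with the block, 152 with the Gapdh covariate, 593 with quantile normalization and 705 with the filter. For saline against wild type it was 470, 239 with the block and 47 with the Gapdh covariate. Probe sets near the noise, such as those of Tyms and Pola1, limit what can be read from dim genes.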
